A study of Mus musculus with 23 samples.

Results

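Messenger RNA levels of 35 enzyme genes were followed in gastrocnemius, a mostly fast-twitch calf muscle, of male C57BL/6J mice. The genes form a pair of linked mitochondrial routes, with 23 encoding pyruvate dehydrogenase, pyruvate carboxylase and enzymes of the tricarboxylic acid (TCA) cycle, and 12 encoding enzymes that break down the branched-chain amino acids leucine, isoleucine and valine. Members were taken by name, and all 35 were found on the arrays through RefSeq accessions, among 23715 features tested. The probe used for each member was well above background on 23 of 23 arrays, and none was saturated. The study asked how adult and old muscle responds to a pair of treadmill regimens. The 23 one-colour arrays comprise old mice after moderate-intensity continuous training (MICT, n = 4), old mice after high-intensity intermittent training (HIIT, n = 4), old sedentary controls (n = 4), adult mice after MICT (n = 3), adult mice after HIIT (n = 4) and adult sedentary controls (n = 4). The labels name no engineered allele and no agent other than exercise in any group. Mice came from a colony of aged rodents, were single-housed and entered the study at 24 (old) or 5 (adult) months, and the samples are labelled 25 or 6 months. Training was daily for 4 weeks. A MICT session was continuous running at 13 m/min, for 45 min in all. A HIIT session held 3 bouts at 27 m/min, each lasting 2 min, separated by 1 min of walking at 5 m/min, and controls were placed on a stopped treadmill. Muscle was taken after 12 h of rest, so the last session and the 4 weeks of training cannot be told apart. Adult MICT replicate 2 was not analysed here. The labels number the arrays of a group without saying that each is a separate mouse, so the spread between them may in part be technical.

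Pyruvate dehydrogenase turns pyruvate from glycolysis into acetyl-CoA, which citrate synthase brings into the TCA cycle. The cycle then oxidises it stepwise and feeds electrons to the respiratory chain. Branched-chain amino acids are broken down largely in muscle and other tissues outside the liver at their opening steps. A mitochondrial transaminase (Bcat2) removes the amino group, and the branched-chain ketoacid dehydrogenase complex, which the kinase Bckdk switches off by phosphorylation, makes the committed step. The leucine branch ends in acetyl-CoA and ketone bodies, and the valine and isoleucine branches pass through propionyl-CoA into succinyl-CoA, an intermediate of the cycle, so that the routes meet. Dld, which reoxidises lipoamide, is a shared subunit of the pyruvate, 2-oxoglutarate and branched-chain ketoacid dehydrogenases.

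Promoter sequence was examined because members of both routes moved together in the comparisons that follow. RefSeq promoter windows of 250 bases before to 50 after the transcription start (GRCm38.p6) were matched by symbol for 32 of the 35 genes, 21 of the TCA and pyruvate arm and 11 of the branched-chain arm. Of 6 motifs searched on both strands, the ETS letters CCGGAAG, bound by factors such as GABPA, were in 5 of 21 TCA and pyruvate genes (Dlst, Idh3b, Idh3g, Sdhb and Sdhd), in 0 of 11 branched-chain genes and in 9.93% of 27025 genes with such a window. The GC box CCCCGCCC, bound by SP and KLF factors, was in 8 of 21 TCA and pyruvate genes, in 5 of 11 branched-chain genes and in 19.6% of all genes. The estrogen-related receptor letters TNAAGGTCA were in Sdhd alone among the members and in 1.43% of all genes. The NRF1 motif (1.07% of all genes), the DR1 repeat of PPAR receptors (0.0481%) and the YY1 motif (0.755%) were in no member's window. The estrogen-related receptor and DR1 motifs share the letters AGGTCA, and a match describes letters and not binding. The windows of 4 of the 5 genes with the smallest adjusted p in the age comparison are shown on the gene's own strand, with ETS and GC box letters in capitals, to set an ETS-bearing pair (Idh3b and Idh3g) beside a GC-rich window with 3 GC boxes (Suclg2) and a window with neither (Bckdha).
Idh3b (chr2:130284402-130284701, minus strand): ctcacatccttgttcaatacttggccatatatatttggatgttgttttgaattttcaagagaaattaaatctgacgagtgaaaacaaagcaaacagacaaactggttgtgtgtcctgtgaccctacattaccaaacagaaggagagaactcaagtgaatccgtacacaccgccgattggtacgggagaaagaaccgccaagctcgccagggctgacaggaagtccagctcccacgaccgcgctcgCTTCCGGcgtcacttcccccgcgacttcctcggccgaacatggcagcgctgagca
Idh3g (chrX:73786848-73787147, minus strand): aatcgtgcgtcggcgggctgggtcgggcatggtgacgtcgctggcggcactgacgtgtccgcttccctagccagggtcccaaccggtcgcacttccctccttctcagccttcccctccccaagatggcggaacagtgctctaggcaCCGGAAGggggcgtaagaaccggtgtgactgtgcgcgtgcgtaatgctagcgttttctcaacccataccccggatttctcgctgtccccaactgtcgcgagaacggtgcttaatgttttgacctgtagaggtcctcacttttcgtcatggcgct
Suclg2 (chr6:95718797-95719096, minus strand): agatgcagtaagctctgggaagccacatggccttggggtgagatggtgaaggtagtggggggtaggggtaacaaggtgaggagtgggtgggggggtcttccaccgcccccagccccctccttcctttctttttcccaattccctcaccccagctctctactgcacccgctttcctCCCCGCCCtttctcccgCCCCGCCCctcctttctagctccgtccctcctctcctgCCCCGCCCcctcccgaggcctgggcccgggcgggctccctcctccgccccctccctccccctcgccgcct
Bckdha (chr7:25658712-25659011, minus strand): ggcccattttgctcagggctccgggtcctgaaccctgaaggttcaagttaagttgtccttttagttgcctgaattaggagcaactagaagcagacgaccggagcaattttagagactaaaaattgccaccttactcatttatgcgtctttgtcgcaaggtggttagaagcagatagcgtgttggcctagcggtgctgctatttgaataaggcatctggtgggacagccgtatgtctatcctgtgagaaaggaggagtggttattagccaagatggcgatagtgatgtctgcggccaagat
Counted from the start site, the ETS letters begin at position -5 in Idh3b, where they read on the opposite strand, and at position -104 in Idh3g. The GC boxes of Suclg2 begin at -75, -58 and -20. The GC content is 50.3% in Idh3b, 60.3% in Idh3g, 67.7% in Suclg2 and 48.0% in Bckdha.

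The share of gene spots well above background ran between 47.2% and 58.9% over the arrays. Levels are log2 intensities with the array's own 75th percentile set to 0, and differences are log2 differences between group means with limma's standard error (SE). A gene was called at a Benjamini-Hochberg adjusted p under 0.05 over all 23715 features. Counts at an unadjusted p under 0.05, and calls with arrays left out, are given without the share of all features. Those counts are therefore not read as particular to the members. All 9 muscle fibre markers were above background on every array. Transcripts of other cells were uneven between arrays: the median deviation of 6 measured B and plasma cell markers from adult controls was 6.70, 5.19, 2.95 and 2.27 in old controls 1 to 4. Of these markers, Ms4a1, Cd79a and Spib were above background on no adult control array. Cd3d, Gzmb and Cd8a of the T and NK cell list were likewise. Deviations of both lists are thus in part measured from background. Arrays lay on 3 slides, with adult controls and adult HIIT on slide 1, adult MICT and old controls on slide 2, and old HIIT and old MICT on slide 3, each slide scanned in a single session. Only the comparisons of old HIIT with old MICT and of adult HIIT with adult control therefore lie within a slide.

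**Figure D1:**
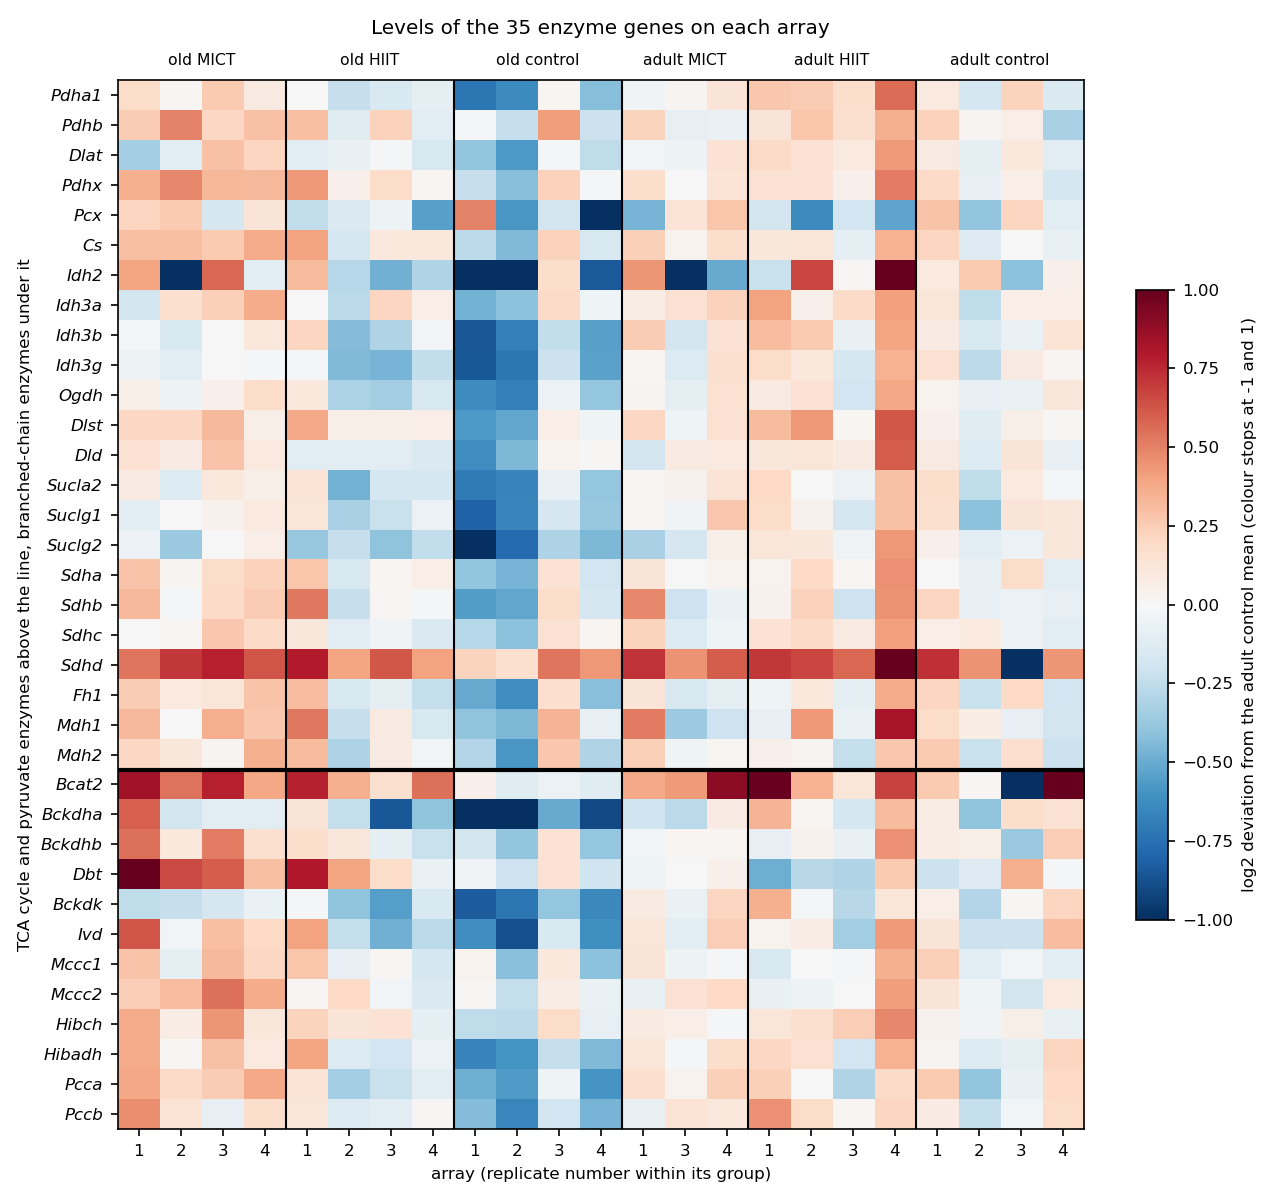
Heat map of the 35 genes (rows) on the 23 arrays (columns), as the log2 deviation from the adult control mean, with colours ending at -1 and 1. Old controls 1, 2 and 4 are blue across most rows, old control 3 is not, and the 4 old MICT arrays are red or pale in most rows.

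Old MICT muscle carried higher levels of both routes than old sedentary muscle. All 35 differences were positive, and 23 genes rose, 13 of 23 in the TCA and pyruvate arm and 10 of 12 in the branched-chain arm, while 0 fell. Among all features, 30.4% were called, 21.3% higher and 9.03% lower. The median difference was 0.47 in the TCA and pyruvate arm and 0.64 in the branched-chain arm, against 0.19 over all features. The groups did not overlap for 7 of the 23 TCA and pyruvate genes and 9 of the 12 branched-chain genes, against 16.3% of all features that lay wholly higher.

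Pdha1, the catalytic alpha subunit of pyruvate dehydrogenase, stood at 5.85, 5.68, 5.93 and 5.76 in old MICT and at 4.94, 5.03, 5.69 and 5.24 in old controls. The difference was 0.58 ± 0.13 (SE, n = 4 each, limma adjusted p = 0.0066), and old control 3 alone reached the trained range. Of the other subunits, the binding protein Pdhx rose by 0.48 ± 0.13, while Pdhb and the acetyltransferase Dlat, at 0.33 each, were not called. Pyruvate carboxylase (Pcx), which replenishes the cycle with oxaloacetate, stood at 5.03, 5.07, 4.64 and 4.94 in old MICT and at 5.31, 4.23, 4.63 and 3.70 in old controls. Its difference of 0.45 ± 0.25 was not called (adjusted p = 0.164), with the highest and the lowest of these values both in controls. Citrate synthase (Cs), the entry enzyme of the cycle, stood at 8.94, 8.94, 8.90 and 9.01 in old MICT and at 8.38, 8.20, 8.87 and 8.48 in old controls. It rose by 0.47 ± 0.13 (adjusted p = 0.0144), and the groups did not overlap although old control 3 lay just beneath the trained arrays.

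Among the isocitrate dehydrogenases, both subunits that regulate the NAD-dependent enzyme rose, and the catalytic subunit Idh3a (0.33 ± 0.15) and the NADP-dependent Idh2 (0.76 ± 0.43) did not pass. Idh3g stood at 7.91, 7.85, 7.96 and 7.95 in old MICT and at 7.12, 7.24, 7.75 and 7.43 in old controls, a difference of 0.54 ± 0.14 (adjusted p = 0.0096). Idh3b stood at 7.23, 7.08, 7.24 and 7.34 in old MICT and at 6.39, 6.55, 6.99 and 6.70 in old controls, a difference of 0.56 ± 0.15 (adjusted p = 0.0105). Neither gene's groups overlapped. Idh2, by contrast, ran from 6.16 to 8.19 within old MICT and from 5.91 to 7.80 within old controls.

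All 3 subunits of the 2-oxoglutarate dehydrogenase complex and all 3 of succinyl-CoA ligase rose. Ogdh, which decarboxylates 2-oxoglutarate, stood at 7.77, 7.66, 7.75 and 7.88 in old MICT and at 7.08, 7.02, 7.65 and 7.31 in old controls, a rise of 0.50 ± 0.13 (adjusted p = 0.0116). The shared subunit Dld stood at 5.23, 5.16, 5.36 and 5.17 in old MICT and at 4.46, 4.63, 5.11 and 5.09 in old controls, a rise of 0.41 ± 0.14 (adjusted p = 0.0312). For Ogdh and Dld the trained arrays all lay above the controls, with gaps that were small next to old control 3. Dlst, the succinyltransferase of the complex, stood at 5.49, 5.49, 5.61 and 5.34 in old MICT and at 4.71, 4.77, 5.35 and 5.24 in old controls, and rose by 0.47 ± 0.14. Suclg2, the GTP-forming beta subunit of the ligase, stood at 2.22, 1.91, 2.28 and 2.34 in old MICT and at 1.29, 1.50, 1.97 and 1.83 in old controls, a rise of 0.54 ± 0.14 (adjusted p = 0.0113). Suclg1, the alpha subunit common to both forms of the ligase, stood at 6.39, 6.49, 6.54 and 6.59 in old MICT and at 5.68, 5.83, 6.33 and 6.12 in old controls, a rise of 0.51 ± 0.15. The groups of Suclg1 did not overlap, and those of Dlst and Suclg2 did. Sucla2, the ATP-forming beta subunit, rose by 0.49 ± 0.14.

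Among the 4 subunits of succinate dehydrogenase, which also serves as respiratory complex II, only the flavoprotein Sdha was called (0.41 ± 0.13), and Sdhb, Sdhc and Sdhd had differences of 0.45, 0.25 and 0.32. Sdhd, a membrane anchor, stood at 7.17, 7.35, 7.42 and 7.27 in old MICT and at 6.86, 6.80, 7.18 and 7.07 in old controls, with an SE of 0.32 that is pooled over all groups. Fumarase (Fh1) rose by 0.53 ± 0.16, and malate dehydrogenases Mdh1 (0.39 ± 0.22) and Mdh2 (0.40 ± 0.16) were not called.

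In the branched-chain arm, the 3 catalytic subunits of the ketoacid dehydrogenase and its kinase all rose in old MICT. Bckdha, the alpha subunit that decarboxylates the ketoacids, stood at 6.47, 5.68, 5.76 and 5.75 in old MICT and at 4.67, 4.82, 5.37 and 4.97 in old controls. It rose by 0.96 ± 0.21 (1.95-fold, adjusted p = 0.00514), the largest difference among the 35 genes, with no overlap and with old MICT 1 well above its group. Bckdhb, the partner beta subunit, stood at 5.25, 4.80, 5.21 and 4.86 in old MICT and at 4.52, 4.31, 4.84 and 4.31 in old controls, a rise of 0.54 ± 0.16 (adjusted p = 0.0166) with overlap at old control 3. Dbt, the transacylase core, rose by 0.72 ± 0.19. Bckdk, the inhibitory kinase, stood at 4.02, 4.04, 4.10 and 4.20 in old MICT and at 3.44, 3.55, 3.89 and 3.63 in old controls, a rise of 0.46 ± 0.14 (adjusted p = 0.0218) without overlap. Enzyme and inhibitor transcripts were thus higher in the same samples. The transaminase Bcat2 stood at 3.15, 2.85, 3.09 and 2.70 in old MICT and at 2.36, 2.19, 2.25 and 2.19 in old controls. Its groups did not overlap, yet its difference of 0.70 ± 0.32 was not called (adjusted p = 0.0991). The SE is pooled over all groups, and Bcat2 ran from 0.94 to 3.41 in adult controls.

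Down the branches, the rise covered leucine, valine and propionyl-CoA enzymes. Ivd, the isovaleryl-CoA dehydrogenase of leucine breakdown, stood at 5.50, 4.84, 5.17 and 5.07 in old MICT and at 4.25, 3.99, 4.71 and 4.26 in old controls, a rise of 0.84 ± 0.20 (adjusted p = 0.00728). Mccc2, the beta subunit of methylcrotonyl-CoA carboxylase, stood at 2.20, 2.26, 2.51 and 2.33 in old MICT and at 1.97, 1.72, 2.03 and 1.89 in old controls, a rise of 0.42 ± 0.12, while its partner Mccc1 (0.36 ± 0.14) was not called. Neither Ivd nor Mccc2 overlapped between groups. Hibadh, which oxidises hydroxyisobutyrate in valine breakdown, stood at 5.88, 5.51, 5.80 and 5.60 in old MICT and at 4.83, 4.91, 5.28 and 5.06 in old controls. It rose by 0.68 ± 0.14 and had the smallest adjusted p of the 35 genes (0.00438). Hibch, the valine-pathway hydrolase before it, stood at 4.54, 4.24, 4.61 and 4.28 in old MICT and at 3.92, 3.91, 4.36 and 4.09 in old controls, a rise of 0.35 ± 0.11 with overlap. The propionyl-CoA carboxylase subunits, which lead valine and isoleucine carbon towards succinyl-CoA, both rose without overlap. Pcca stood at 2.68, 2.48, 2.54 and 2.67 in old MICT and at 1.80, 1.72, 2.25 and 1.70 in old controls, a rise of 0.72 ± 0.16 (adjusted p = 0.00511). Pccb stood at 2.25, 1.93, 1.70 and 1.97 in old MICT and at 1.35, 1.13, 1.59 and 1.32 in old controls, a rise of 0.61 ± 0.13 (adjusted p = 0.00511).

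**Figure D2:**
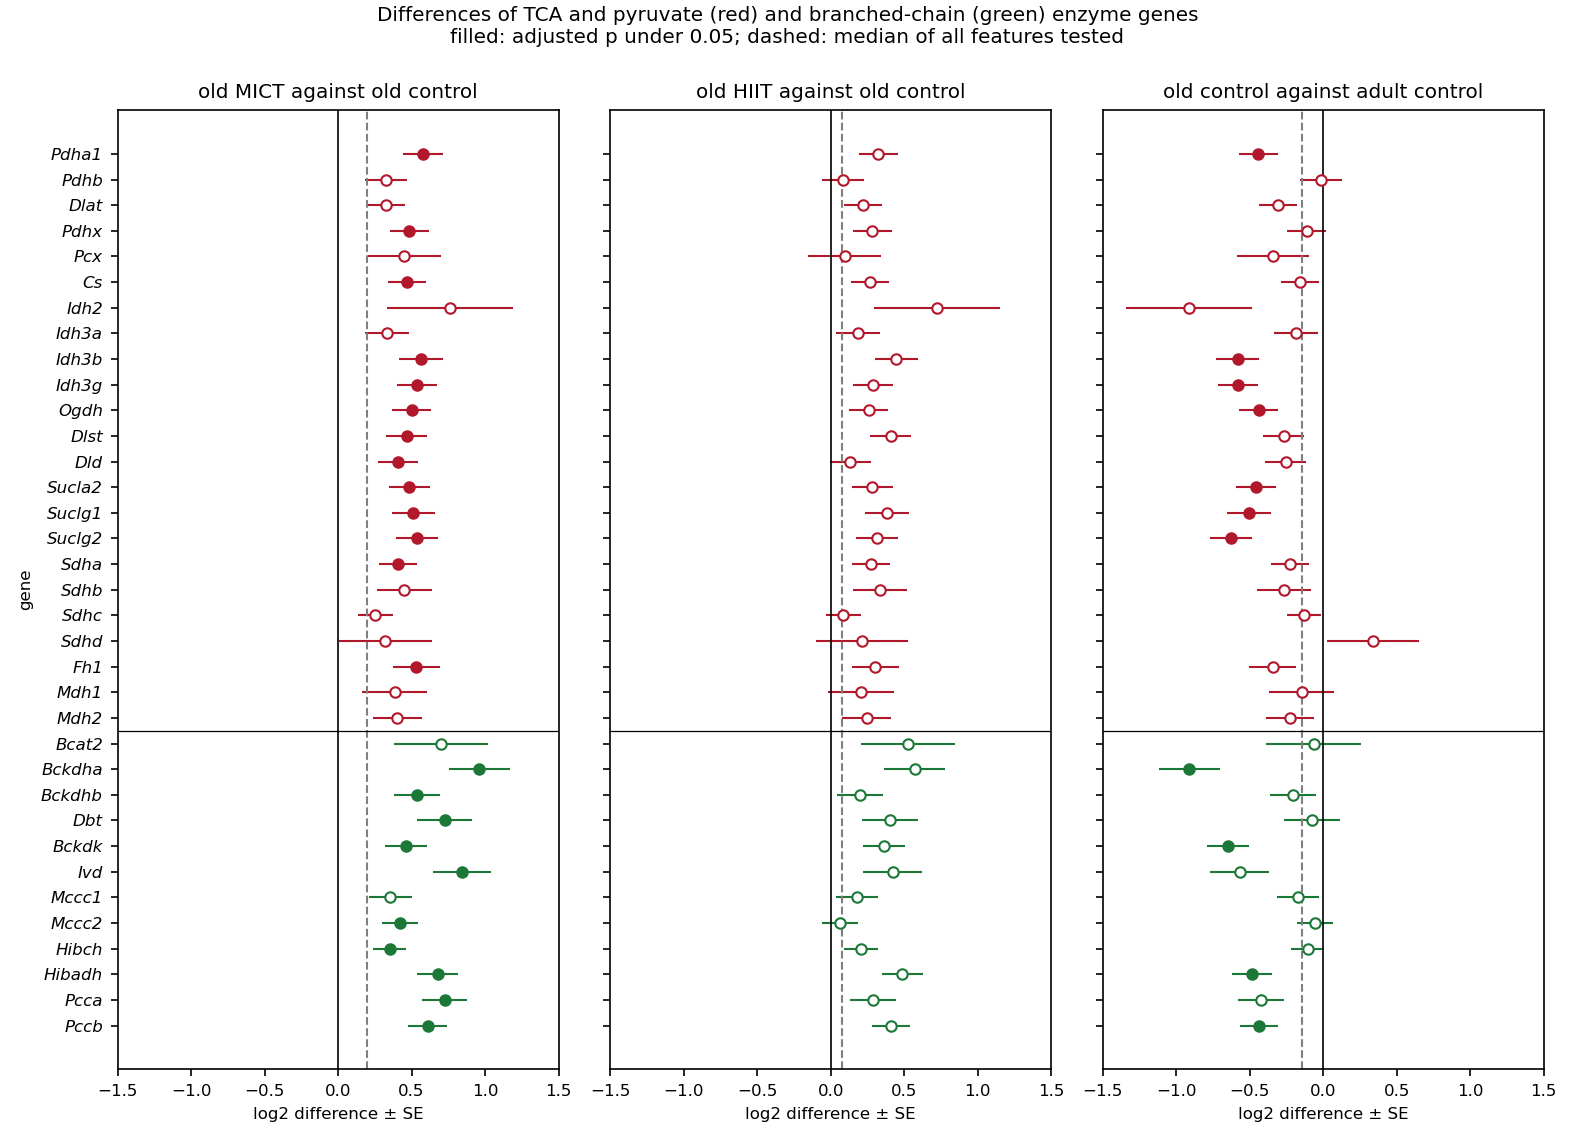
Log2 differences with SE for the 35 genes in old MICT against old control, old HIIT against old control, and old control against adult control, with filled points called at an adjusted p under 0.05 and a dashed line at the median of all features. In old MICT all points lie right of 0 and 23 are filled, in old HIIT all lie right of 0 and none is filled, and in the age comparison 34 lie left of 0 and 11 are filled.

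Of the other genes of these pathways, 12 of 18 measured branched-chain genes rose and 0 fell (all features: 21.3% higher, 9.03% lower). They include Acadsb, the short branched-chain acyl-CoA dehydrogenase of isoleucine breakdown (0.79 ± 0.14), Aldh6a1, which makes propionyl-CoA from methylmalonate semialdehyde (0.72 ± 0.13), Klf15, a transcription factor known to drive branched-chain breakdown in mouse muscle (1.78 ± 0.37), and Slc25a44, the mitochondrial carrier of these amino acids (0.72 ± 0.16). Klf15 stood at 4.22, 4.01, 2.42 and 2.14 in old MICT and at 1.41, 1.18, 1.68 and 1.40 in old controls, so its rise was widest in old MICT 1 and 2. Ppm1k, the phosphatase that reactivates the ketoacid dehydrogenase, had a difference of 0.23 ± 0.22 and was not called (adjusted p = 0.421). Of 22 other TCA and pyruvate genes, 8 rose and 2 fell, beside the same 21.3% and 9.03% of all features. Pdk4, a kinase that inhibits pyruvate dehydrogenase when fat is burned, stood at 9.38, 9.08, 6.66 and 6.16 in old MICT and at 3.11, 4.10, 4.84 and 4.21 in old controls, a rise of 3.76 ± 0.76 (13.5-fold). Pdk3, another kinase of that family, fell by 1.41 ± 0.29, and Me2, a mitochondrial malic enzyme, fell by 0.89 ± 0.23. The alanine transaminase Gpt2 rose by 1.53 ± 0.41.

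Other transcripts moved with this comparison, and their part in it was not tested. The muscle fibre marker level (median of 9) reached 0.18, 0.08, -0.22 and 0.44 in old MICT, against -0.42, -0.58, 0.29 and -0.33 in old controls, with 3 of 9 markers called higher. The B and plasma cell level lay at -0.06 to 0.48 in old MICT, against 2.27 to 6.70 in old controls, with 5 of 6 markers called lower and Cd79a and Spib above background on no old MICT array. T and NK cell markers ran from -0.22 to 0.30 in old MICT and from 1.32 to 4.03 in old controls (5 of 7 lower), with Cd3g, Gzmb and Cd8a above background on no old MICT array. Fibroblast markers ran from -1.88 to -0.54 in old MICT and from -0.36 to 0.80 in old controls (4 of 6 lower, 1 higher). Adipocyte markers, at 0.21 to 2.30 in old MICT and 0.34 to 3.87 in old controls, and slow-twitch fibre markers, at -2.51 to -0.60 in old MICT and -1.44 to 1.37 in old controls, held 0 of 7 calls each. Macrophage markers (3 of 6 lower), neutrophil and mast cell markers (2 of 7 lower) and hepatocyte markers (1 of 3 lower) were lower in part. Old control 4 reached a macrophage level of 1.25 and a level of 7.25 on the joint neutrophil and mast cell list. Old MICT 3 was also raised on that joint list, at 4.19, and so was old HIIT 1, at 5.65. The 7.25 came from S100a8, S100a9, Ngp, Camp and Ltf. The mast cell genes Cma1 (-1.37) and Mcpt4 (1.85) were instead lower in old control 4 than in any other old control. In bulk muscle, fewer cells of a type and less RNA per cell cannot be told apart. When each array was instead scaled on its muscle fibre markers, an alternative chosen after seeing the data, 0 members were called (1 at an unadjusted p under 0.05) and 23 of 35 were positive. On that scale the median difference was 0.03 for TCA and pyruvate genes and 0.20 for branched-chain genes, with all features shifted to -0.25. Without old controls 1 and 2, limma called 0 members (12 at an unadjusted p under 0.05), with all 35 still positive and medians of 0.22 and 0.52. Leaving out old control 2 alone left 11 calls, with no share of all features given here. The groups lie on different slides, so slide and training cannot be told apart by a direct comparison. An additive model of age, training and slide has as many terms as there are groups and forces the same MICT difference on both ages. Its estimate is the adult HIIT minus adult control difference plus the old MICT minus old HIIT difference, and old controls do not enter it. That estimate had medians of 0.37 and 0.42, with 34 positive, 9 at an unadjusted p under 0.05 and 0 called.

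**Figure D3:**
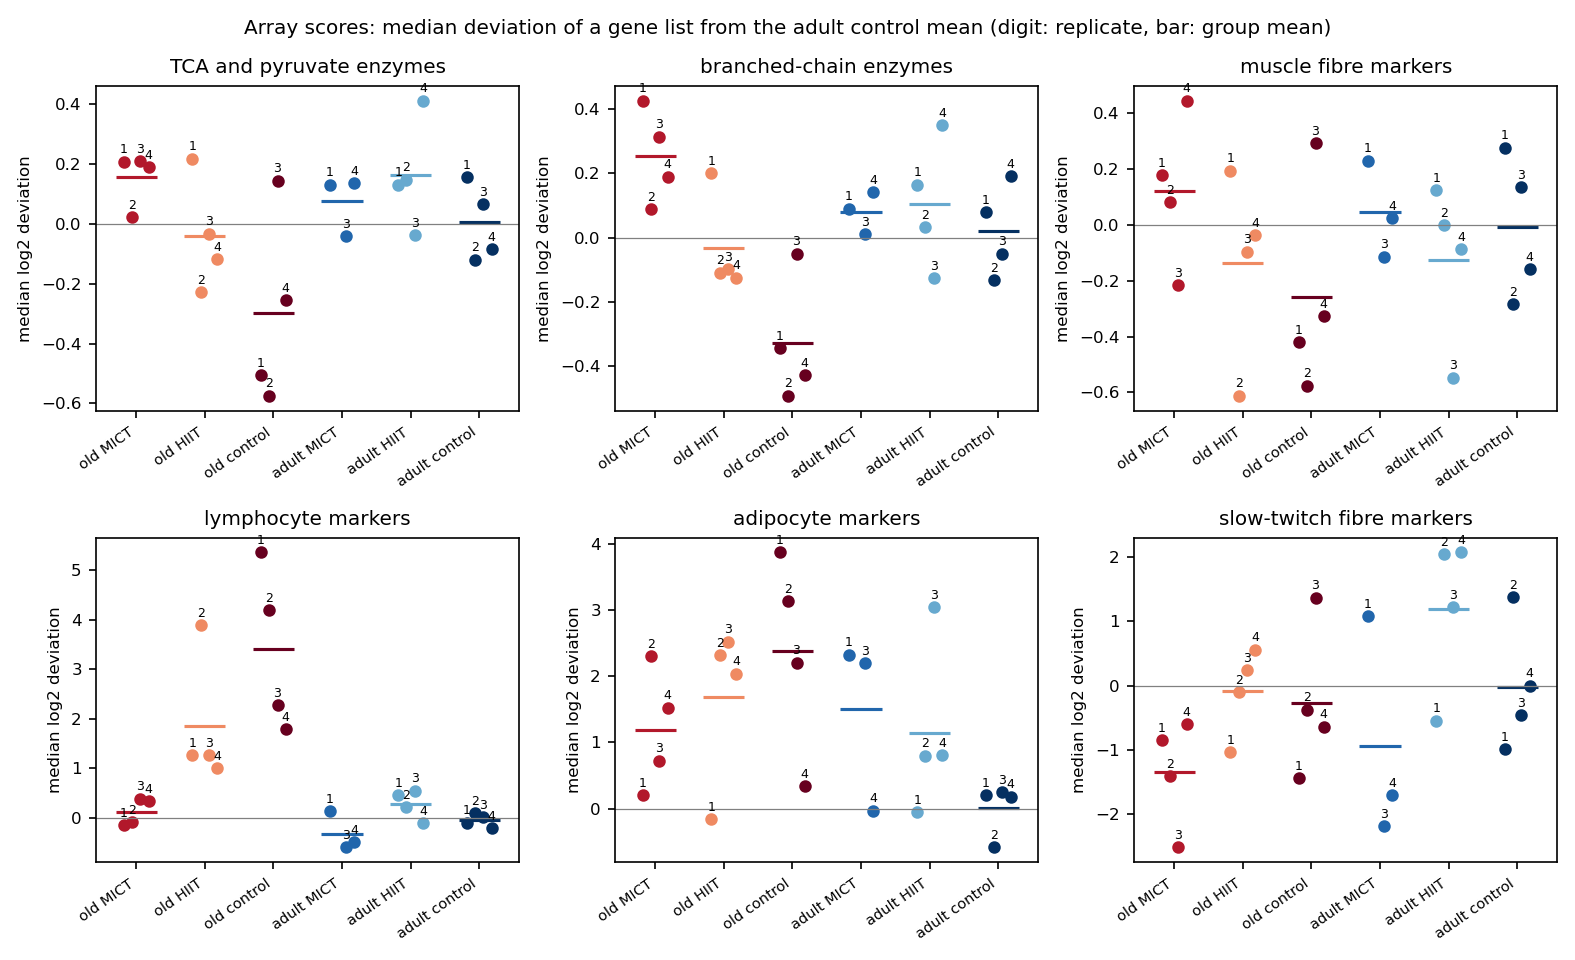
Level of the enzyme arms and of marker lists on each array, as the median log2 deviation of a list from the adult control mean, with digits for replicates and bars for group means. Old controls 1, 2 and 4 are lowest in both enzyme arms and are also below 0 in muscle fibre markers. Lymphocyte markers are high in all 4 old controls, including old control 3 (2.28, against 1.79 in old control 4), and in old HIIT 2 (3.89).

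Old sedentary muscle had lower levels of these enzymes than adult sedentary muscle. Of the 35 differences 34 were negative, and 11 genes fell, 7 in the TCA and pyruvate arm and 4 in the branched-chain arm, while 0 rose. Among all features, 12.9% were called, 8.3% lower and 4.55% higher. The median difference was -0.27 in the TCA and pyruvate arm and -0.31 in the branched-chain arm, against -0.14 over all features. The groups did not overlap for 5 members, against 10.7% of all features that lay wholly lower. This comparison shares its old controls with the MICT comparison, so the opposite signs of these comparisons are not independent.

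In the TCA and pyruvate arm, the 7 calls were all 3 succinyl-CoA ligase subunits, both regulatory isocitrate dehydrogenase subunits, Ogdh and Pdha1. Adult controls stood at 2.33, 2.17, 2.22 and 2.39 for Suclg2, wholly above the old control values given above, and Suclg2 fell by 0.63 ± 0.14 in old controls (n = 4 each, limma adjusted p = 0.0135). Idh3g stood at 8.12, 7.70, 8.05 and 7.98 in adult controls and fell by 0.58 ± 0.14 in old controls (adjusted p = 0.0158), with overlap at old control 3. Idh3b stood at 7.32, 7.09, 7.17 and 7.37 in adult controls and fell by 0.58 ± 0.15 in old controls (adjusted p = 0.0198), without overlap. Suclg1 stood at 6.66, 6.09, 6.62 and 6.61 in adult controls, where replicate 2 lay within the old range, and fell by 0.50 ± 0.15 in old controls. Pdha1 stood at 5.77, 5.49, 5.89 and 5.52 in adult controls and Ogdh at 7.74, 7.62, 7.64 and 7.81. Pdha1 and Ogdh each fell by 0.44 ± 0.13 in old controls, and Sucla2 fell by 0.46 ± 0.14. Cs, at 8.85, 8.51, 8.64 and 8.56 in adult controls, had a difference of -0.16 ± 0.13 and was not called (adjusted p = 0.409). Pcx, at 5.09, 4.41, 5.03 and 4.70 in adult controls, had a difference of -0.34 ± 0.25 and was not called.

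In the branched-chain arm, Bckdha, Bckdk, Hibadh and Pccb fell. Bckdha stood at 5.94, 5.47, 6.04 and 6.02 in adult controls and fell by 0.91 ± 0.21 in old controls (adjusted p = 0.0138), a drop to 0.531 of the adult level and wholly outside the adult range. Bckdk stood at 4.34, 3.98, 4.28 and 4.49 in adult controls and fell by 0.64 ± 0.14 in old controls, with the smallest adjusted p of the members (0.0123) and no overlap. The catalytic alpha subunit and the inhibitory kinase were thus both lower, whereas Bckdhb (-0.21 ± 0.16) and Dbt (-0.07 ± 0.19) were not called. Bckdhb stood at 4.77, 4.76, 4.33 and 4.94 in adult controls, so the old controls overlapped it. Hibadh stood at 5.53, 5.36, 5.40 and 5.72 in adult controls and fell by 0.48 ± 0.14 in old controls, without overlap. Pccb stood at 1.87, 1.55, 1.76 and 1.97 in adult controls and fell by 0.44 ± 0.13 in old controls, with overlap. Ivd, at 5.00, 4.65, 4.65 and 5.17 in adult controls, had a difference of -0.57 ± 0.20 (adjusted p = 0.0618), and Pcca, at 2.55, 1.90, 2.21 and 2.49, had -0.42 ± 0.16 (adjusted p = 0.0729). Neither was called.

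Sdhd was the only member with a positive difference by age (0.34 ± 0.32). It stood at 7.37, 7.09, 5.01 and 7.09 in adult controls, and replicate 3 lay far beneath the rest. Without that array the difference was -0.20 ± 0.13 (adjusted p = 0.32). Bcat2 was also lowest on that array, at 2.58, 2.32, 0.94 and 3.41 in adult controls, and its difference by age was -0.06 ± 0.32 with it and -0.52 ± 0.23 without it (adjusted p = 0.157). The TCA and pyruvate level of that array was 0.07 and its branched-chain level was -0.05, both within the range of adult controls.

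Of the other genes of these pathways, 5 of 18 branched-chain genes and 4 of 22 TCA and pyruvate genes fell with age and 0 rose. Over all features, 8.3% were called lower and 4.55% higher by age. Mmaa and Mmab, which handle the cobalamin that methylmalonyl-CoA mutase needs, fell by 0.57 ± 0.13 and 0.50 ± 0.14, the mutase Mmut fell by 0.42 ± 0.13, and Aldh6a1 fell by 0.44 ± 0.13. Pdk2, a pyruvate dehydrogenase kinase, fell by 0.72 ± 0.16, the pyruvate carrier subunit Mpc2 by 0.44 ± 0.11, the mitochondrial malic enzyme Me3 by 0.45 ± 0.14 and the aspartate transaminase Got2 by 0.59 ± 0.19. Pdk4 (-1.96 ± 0.76, adjusted p = 0.0835), Klf15 (-0.30 ± 0.37) and Ppm1k (-0.02 ± 0.22) were not called.

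The age comparison rests on few arrays. The TCA and pyruvate level stood at -0.51, -0.57, 0.14 and -0.25 in old controls 1 to 4, against 0.16, -0.12, 0.07 and -0.08 in adult controls, and the branched-chain level at -0.34, -0.49, -0.05 and -0.43 in old controls, against 0.08, -0.13, -0.05 and 0.19 in adult controls. The muscle fibre level moved with both, at -0.42, -0.58, 0.29 and -0.33 in old controls and -0.28 to 0.28 in adult controls, with 2 of 9 fibre markers called lower. B and plasma cell markers (5 of 6 higher, -0.30 to 0.04 in adult controls), T and NK cell markers (5 of 7 higher) and adipocyte markers (3 of 7 higher) ran the other way, and the part of these transcripts in the result was not tested. Scaled on muscle fibre markers, 0 members were called (3 at an unadjusted p under 0.05), 21 of 35 differences were positive, and the medians were 0.09 and 0.05 with all features at 0.22. Leaving out old control 1 or old control 2 left 1 call, leaving out both together left 0 (6 at an unadjusted p under 0.05), and leaving out old control 4 left 7. Without old control 3 the number was 17, and without adult control 1, 3 or 4 it was 3, 4 and 4. The shares of all features called with these arrays left out are not given here. The additive model with slide, which here sets old controls against adult MICT on their shared slide and adds the MICT estimate described above, called 0 members and gave 18 of 35 positive differences (1 with an unadjusted p under 0.05).

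**Figure D4:**
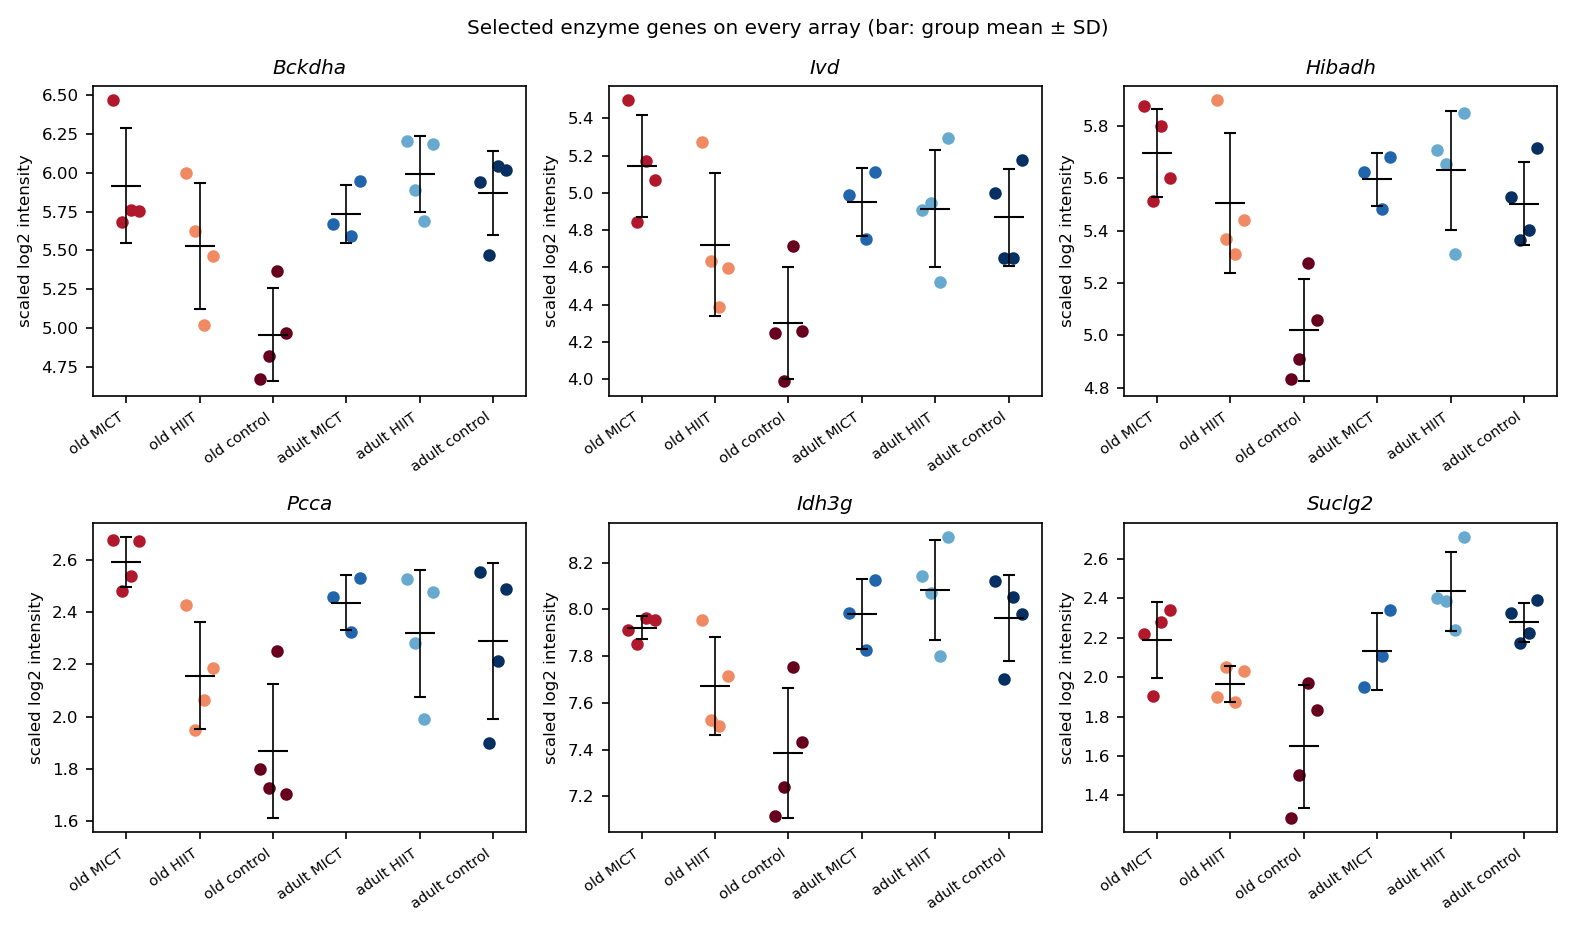
Scaled log2 intensity of Bckdha, Ivd, Hibadh, Pcca, Idh3g and Suclg2 on every array, with group means and SD. In each panel old controls have the lowest mean, and for Bckdha the old MICT mean lies near the adult control mean.

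Old HIIT muscle stood between the other old groups. Against old controls all 35 differences were positive, with a median of 0.27 in the TCA and pyruvate arm and 0.38 in the branched-chain arm and 0.08 over all features. Limma called 0 members, where 0.493% of all features were called. At an unadjusted p under 0.05 there were 14 members, and the share of all features at that threshold is not given here. The smallest adjusted p was that of Hibadh, at 5.90, 5.37, 5.31 and 5.44 in old HIIT, a difference of 0.49 ± 0.14 from old controls (adjusted p = 0.118). Its groups did not overlap, as was also so for Pccb, at 1.91, 1.66, 1.68 and 1.80 in old HIIT (0.41 ± 0.13), and for Bcat2, at 3.08, 2.67, 2.47 and 2.87 (0.53 ± 0.32). These 3 of 35 compare with 4.59% of all features lying wholly higher. Idh3b, at 7.46, 6.80, 6.94 and 7.21 in old HIIT, had 0.45 ± 0.15, and Dlst, at 5.66, 5.34, 5.34 and 5.35, had 0.41 ± 0.14. In both, old HIIT 1 was the highest of its group. With no share of all features given here, the number of calls without old control 3 was 4. Without old controls 1 and 2 it was 0 (0 at an unadjusted p under 0.05), with medians of 0.066 and 0.24 and 30 of 35 positive. Cell markers moved here too, with a B and plasma cell level of 1.36 to 5.03 in old HIIT and 2.27 to 6.70 in old controls and a fibre level of -0.61 to 0.19 in old HIIT and -0.58 to 0.29 in old controls, and their part was not tested.

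Several enzymes that are landmarks of these routes can be followed in old HIIT, none of them called there. In old HIIT, Cs stood at 9.04, 8.47, 8.75 and 8.75, a difference of 0.27 ± 0.13 from old controls. In old HIIT, Pcx stood at 4.56, 4.66, 4.76 and 4.27, a difference of 0.10 ± 0.25 from old controls. In old HIIT, Bckdha stood at 6.00, 5.63, 5.02 and 5.47, a difference of 0.57 ± 0.21 from old controls. In old HIIT, Bckdk stood at 4.26, 3.87, 3.72 and 4.12, a difference of 0.37 ± 0.14 from old controls.

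Old HIIT and old MICT lay on the same slide, and this comparison needs no controls. All 35 differences were negative, with medians of -0.18 in the TCA and pyruvate arm and -0.26 in the branched-chain arm and -0.09 over all features. Limma called 0 members and 0% of all features, and 4 members, all in the branched-chain arm, had an unadjusted p under 0.05. Mccc2 stood at 1.97, 2.15, 1.93 and 1.81 in old HIIT and at 2.20, 2.26, 2.51 and 2.33 in old MICT, a difference of -0.36 ± 0.12 (adjusted p = 0.22). Pcca stood at 2.43, 1.95, 2.06 and 2.19 in old HIIT and at 2.68, 2.48, 2.54 and 2.67 in old MICT, a difference of -0.44 ± 0.16 (adjusted p = 0.221). Neither gene's groups overlapped, but neither difference was called. Bckdhb, at 4.88, 4.82, 4.61 and 4.48 in old HIIT, had -0.34 ± 0.16, and Ivd, at 5.27, 4.63, 4.39 and 4.60, had -0.42 ± 0.20. Pdha1, at 5.67, 5.44, 5.52 and 5.58 in old HIIT, had -0.25 ± 0.13, and Dld, at 4.96, 4.97, 4.97 and 4.93, had -0.27 ± 0.14, both without overlap. In all, 4 members lay wholly lower in old HIIT, against 4.25% of all features. Lymphocyte and fibre markers differed on this slide too: the B and plasma cell level ran from 1.36 to 5.03 in old HIIT, against -0.06 to 0.48 in old MICT, and the fibre level from -0.61 to 0.19 in old HIIT, against -0.22 to 0.44 in old MICT. Scaled on muscle fibre markers the direction turned, with 30 of 35 differences positive and medians of 0.16 and 0.077, while the median of all features was 0.25 on that scale.

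In adult muscle limma called no member under either regimen. Against adult controls on the same slide, adult HIIT had 33 of 35 positive differences, with medians of 0.21 in the TCA and pyruvate arm and 0.08 in the branched-chain arm and -0.01 over all features, 0 calls (4 members at an unadjusted p under 0.05) and 0% of all features called. Dlst stood at 5.60, 5.71, 5.30 and 5.91 in adult HIIT and at 5.33, 5.16, 5.34 and 5.30 in adult controls, a difference of 0.35 ± 0.14 (adjusted p = 0.922). Hibch stood at 4.30, 4.34, 4.42 and 4.65 in adult HIIT and at 4.22, 4.14, 4.23 and 4.10 in adult controls, a difference of 0.25 ± 0.11, and was the only member whose groups did not overlap, against 1.5% of all features lying wholly higher. Sdhd, at 7.35, 7.31, 7.22 and 7.69 in adult HIIT, had 0.75 ± 0.32, and 0.21 ± 0.13 without adult control 3. Adult HIIT 4 had the highest TCA and pyruvate level of the 23 arrays (0.41) and the highest branched-chain level of its group (0.35). Slow-twitch fibre markers stood at -0.54, 2.05, 1.22 and 2.08 in adult HIIT and at -0.99, 1.38, -0.46 and 0.00 in adult controls, and their part was not tested.

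Adult MICT, on another slide, had 29 of 35 positive differences from adult controls, with medians of 0.04 and 0.07 against -0.02 over all features. Scaled on muscle fibre markers the medians turned to -0.14 and -0.12 (all features at -0.20), and the additive model with slide gave 0.37 and 0.42, by construction its old MICT estimate. Limma called 0 members, 0 had an unadjusted p under 0.05, and 0% of all features were called. Sdhd, at 7.37, 7.09 and 7.25 in adult MICT, had 0.59 ± 0.34, and 0.05 ± 0.14 without adult control 3. Bcat2, at 2.69, 2.74 and 3.20 in adult MICT, had 0.57 ± 0.35, and 0.11 ± 0.25 without that array. Cs, at 8.88, 8.68 and 8.82 in adult MICT, had 0.15 ± 0.14. Between the regimens in adults, 26 of 35 differences of adult HIIT from adult MICT were positive and 2 members, Hibch and Pdha1, lay wholly higher in adult HIIT (4.06% of all features did), with 0 called by limma, 0 at an unadjusted p under 0.05 and 0% of all features called. The medians were 0.13 and 0.0037, and the additive model with slide, which takes this difference from the old groups, turned them to -0.18 and -0.26. Suclg2, at 2.40, 2.39, 2.24 and 2.71 in adult HIIT and 1.95, 2.11 and 2.34 in adult MICT, had the smallest p, with 0.30 ± 0.15 (adjusted p = 0.668).

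In trained adults none of the landmark enzymes was called. Pdha1 stood at 5.94, 5.92, 5.84 and 6.23 in adult HIIT and at 5.64, 5.70 and 5.79 in adult MICT, with differences from adult controls of 0.32 ± 0.13 and 0.04 ± 0.14. Pcx stood at 4.63, 4.17, 4.61 and 4.28 in adult HIIT and at 4.34, 4.94 and 5.08 in adult MICT, with differences from adult controls of -0.39 ± 0.25 and -0.02 ± 0.27. Bckdha stood at 6.21, 5.89, 5.69 and 6.19 in adult HIIT and at 5.67, 5.60 and 5.95 in adult MICT, with differences from adult controls of 0.12 ± 0.21 and -0.13 ± 0.22. Both trained groups overlapped the adult controls for each of these enzymes. Bckdhb stood at 4.62, 4.75, 4.62 and 5.16 in adult HIIT and at 4.68, 4.72 and 4.72 in adult MICT, with differences from adult controls of 0.09 ± 0.16 and 0.00 ± 0.17. Bckdk stood at 4.63, 4.26, 3.99 and 4.40 in adult HIIT and at 4.37, 4.20 and 4.49 in adult MICT, with differences from adult controls of 0.05 ± 0.14 and 0.08 ± 0.15. Cs stood at 8.75, 8.76, 8.54 and 8.99 in adult HIIT (0.12 ± 0.13), and Bcat2 at 3.30, 2.66, 2.43 and 2.98 (0.53 ± 0.32), where adult controls include the low array 3.

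The difference in MICT response between ages was tested directly. Its groups lie on 3 slides and slide effects do not cancel in it, so slide and a difference by age cannot be told apart. The difference was positive for 34 of 35 members, with medians of 0.40 in the TCA and pyruvate arm and 0.55 in the branched-chain arm and 0.20 over all features. Limma called 0 members (13 at an unadjusted p under 0.05), where 0.696% of all features were called. Bckdha had the smallest adjusted p, 1.09 ± 0.31 higher in the old than in the adult response (adjusted p = 0.083), and Suclg2 followed with 0.68 ± 0.21 (adjusted p = 0.0945). Rises called in old and not in adult mice are therefore not shown to differ by age. Leaving out old control 3 gave 8 calls and leaving out adult control 2 gave 1, with no share of all features given here. The medians were 0.16 and 0.44 without old controls 1 and 2, 0.12 and 0.26 with quantile normalization, 0.15 and 0.29 on muscle fibre scaling and 0.035 and 0.32 with composition covariates. The same test for HIIT called 0 members (1 at an unadjusted p under 0.05) and 0% of all features, with 26 of 35 positive, or 14 of 35 without old controls 1 and 2. Slide effects do not cancel there either, since old HIIT and old controls lie on different slides.

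The arms ran closely together on the arrays. The difference between the TCA and pyruvate level and the branched-chain level came to -0.22, -0.07, -0.10 and 0.00 in old MICT, -0.16, -0.08, 0.19 and 0.17 in old controls and 0.08, 0.01, 0.12 and -0.27 in adult controls, so the sign of the difference varied within both control groups. Old MICT had branched-chain levels of 0.43, 0.09, 0.31 and 0.19 and TCA and pyruvate levels of 0.21, 0.02, 0.21 and 0.19. Relative to the muscle fibre markers of the same array, the TCA and pyruvate level stood at 0.03, -0.06, 0.43 and -0.25 in old MICT, -0.09, 0.00, -0.15 and 0.07 in old controls and -0.12, 0.16, -0.07 and 0.08 in adult controls. The branched-chain level relative to fibre markers stood at 0.25, 0.01, 0.53 and -0.26 in old MICT, 0.08, 0.08, -0.34 and -0.10 in old controls and -0.20, 0.15, -0.19 and 0.35 in adult controls. On this footing the 3 groups overlapped in both arms.

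**Figure D5:**
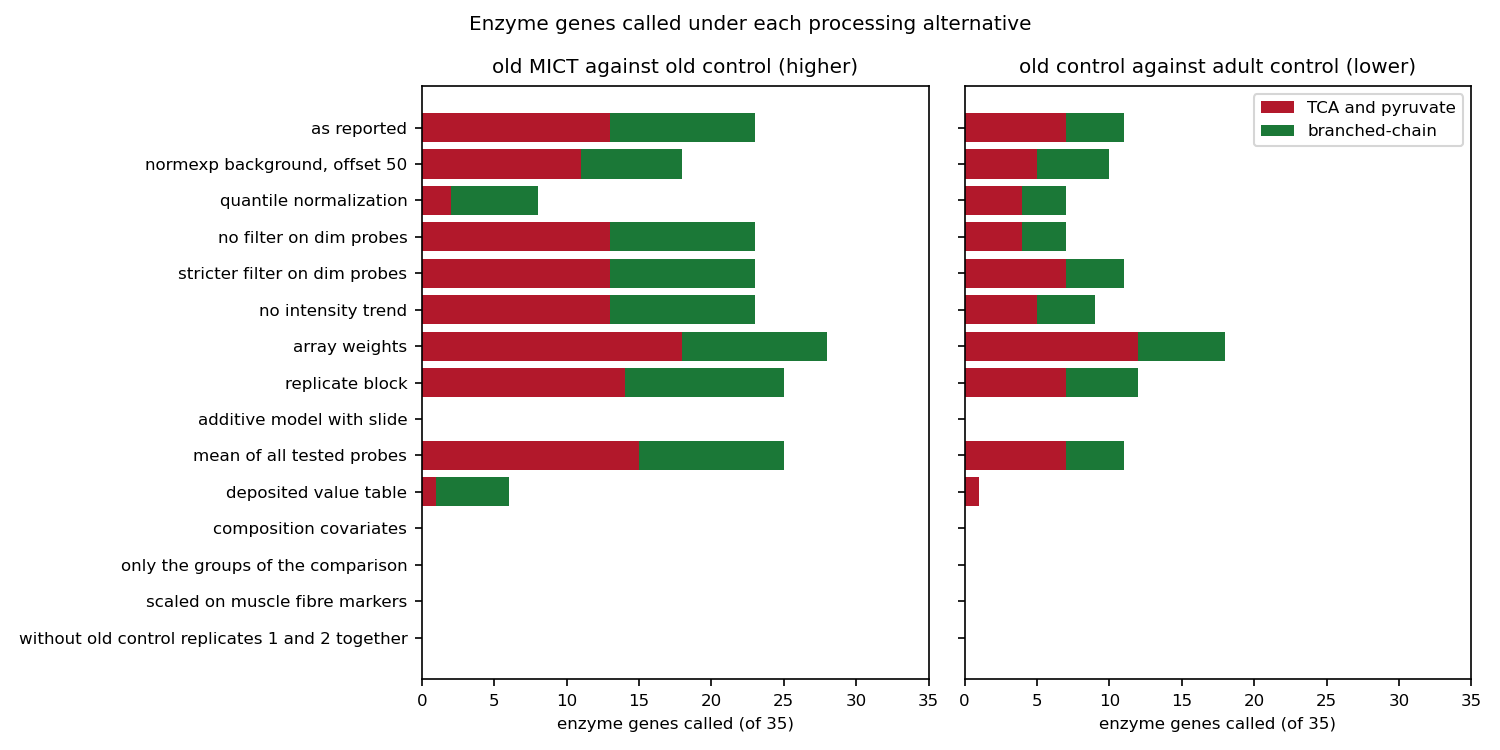
Number of the 35 genes called in old MICT against old control (all higher) and in old control against adult control (all lower) under each processing alternative, split by arm. The counts are 23 and 11 as reported, 8 and 7 with quantile normalization, and 0 and 0 in the rows with no bar.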

How the data were processed

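RNA of gastrocnemius muscle was measured on 23 one-colour Agilent arrays. Per the file headers, Feature Extraction 12.0.3.1 made the deposited intensity values, which the authors deposited per array after background subtraction and spatial detrending, with no scaling between arrays. A deposited series table holds a score per spot whose making is not given in the sources used here. Its values followed the log signal, with array medians between -0.4 and -0.2. As an alternative they were fitted as deposited, without the 75th-percentile scaling. Of 62976 spots an array, 3671 controls were left out, as were 283 probes with outlier spots. Here, log2 of the processed intensity minus each array's 75th percentile was used. Probes well above background on at least 3 arrays (31950) were tested, named through RefSeq accessions (28123 of 29574 accession probes matched, GRCm38.p6 used for names and promoter windows, the array being annotated on mm9), and the brightest probe per gene was kept, giving 23715 features. For Dld, Sdhb, Sdhc, Pdhb and Mccc1 (2 probes each) and Ogdh (3 probes), all probes gave the same direction in the 2 comparisons with calls.

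Group means over all 23 arrays were fitted with limma 3.58.1 in R 4.3.3 (package data.table, version 1.17.8) for 9 comparisons. Variance followed intensity, tests were 2-sided, and p-values were adjusted by Benjamini-Hochberg. Changes were planted in simulated data on the 23715 features of old MICT against old control. Of these, 55 of 100 of 1 log2 unit and 88 of 100 of 2 log2 units were recovered, with 4 false calls. Noise was independent between genes and few features were changed. The recovery therefore does not give the sensitivity of the real comparison, where 30.4% of features were called. An array's level for a list is the median deviation of its genes from the adult control mean. Members with a value for every array were the 5 per arm with the smallest p in the 2 comparisons with calls, 2 per arm in the others, and 7 fixed genes. The members, lists and rules were chosen with earlier results of these data known. Alternatives were normexp background, quantile scaling, other filters on dim probes, no intensity trend, weighted arrays, the replicate block, slide as an additive term, the mean of all probes, the deposited table, composition covariates (lymphocyte, adipocyte and slow-twitch levels), only the compared groups, and arrays left out; scaling on muscle fibre markers was added after seeing the data. The number of arrays limits the precision. A single gene that the rule would name is not reported here.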

Additional observations from a re-analysis of the deposited data

Results flagged for a closer look

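Arrays whose value lay apart from the others of their group were found for 8 of 115 groups of values tested, where chance gives about 5.75. The TCA and pyruvate level of old MICT 2 was 0.022, against 0.19 to 0.21 in the other old MICT arrays. Bckdha in old MICT 1 was 6.47, against 5.68 to 5.76. The branched-chain level of old HIIT 1 was 0.20, against -0.13 to -0.10, and Dlst on the same array was 5.66, against 5.34 to 5.35. In adult HIIT 4, Dld was 5.68, against 5.16 to 5.20, and Mccc2 was 2.37, against 1.88 to 1.96. Sdhd in adult control 3 was 5.01, against 7.09 to 7.37, and Suclg1 in adult control 2 was 6.09, against 6.61 to 6.66. The causes were not tested.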

How the results depend on the processing

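Calls varied with the controls kept, the scaling and the terms of the fit, and the cause was not tested. The additive model with slide does not use old controls for its MICT estimate, so its 0 calls there are not a test of slide. For old MICT against old control, the 23 calls became 8 with quantile normalization, 6 with the deposited value table, and 0 with the additive model with slide, composition covariates, only the groups of the comparison, scaling on muscle fibre markers (added after seeing the data) and removal of old controls 1 and 2 together. With only the groups of the comparison, 27 members had an unadjusted p under 0.05, and the medians were as reported (0.47 and 0.64), while with composition covariates 5 had such a p and the medians were 0.23 and 0.51. By age, composition covariates gave medians of 0.10 and -0.17. For old control against adult control, the 11 calls became 7 with quantile normalization, 7 with no filter on dim probes, 18 with array weights, 1 with the deposited value table and 0 under the same 5 alternatives. Array weights gave 5 calls for adult HIIT against adult MICT and 12 for the MICT response in old minus adult. The share of all features called under each alternative is not given here, so these counts are not read as particular to the members. Leaving out each array in turn gave 11 to 31 calls for old MICT against old control, 1 to 17 by age, 0 to 4 for old HIIT against old control and 0 to 8 for the MICT response by age, and 0 in the other comparisons. The difference of Pdha1 by age became 0.085 with the additive slide model, that of Sucla2 became 0.053 with composition covariates, and on muscle fibre scaling Dld (-0.031), Sdha (-0.032), Mccc2 (-0.017) and Hibch (-0.089) turned negative in old MICT against old control. With the replicate block, 25 members were called in old MICT against old control and 12 by age. Same-numbered arrays correlated between -0.32 and 0.34 in their deviations. Differently numbered arrays were not compared, so these values do not settle whether the numbers pair samples.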
